A study of Gallus gallus with 4 samples.

Results

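Egg coat genes were measured in the gonads of 17-week-old chickens. The avian egg is wrapped in an inner perivitelline layer, the counterpart of the mammalian zona pellucida, a mesh of glycoproteins that share a ZP domain through which they polymerise into filaments. Sperm bind to this layer and pierce it at fertilisation. In the chicken its subunits are known to come from different cells: ZP1 is made in the liver under oestrogen and carried to the follicle in blood, ZP3 and ZPD are made by the granulosa cells around the oocyte, and ZP2 is a product of the oocyte.

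The genes were chosen by name, as every probe set whose platform symbol is ZP followed by a digit, ZPD or ZPAX. Of 38382 probe sets tested, 10 met this, and they represented 7 genes: ZP1, ZP2, ZP4, ZPAX, ZP3, ZP3L1 and ZP3L2. ZP2 had 2 probe sets, ZPAX had 3 and each of the others 1. The symbol ZPD had 0 probe sets, but the RefSeq gene table gives ZPD as another name of the gene it lists as UMOD, which had 1 probe set. Its values are reported beside the others and kept out of their counts.

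The data were 4 Affymetrix Chicken Genome Arrays, 2 of ovary pools and 2 of testis pools, each pool holding equal amounts of RNA from 4 animals (16 animals, 8 of each sex) of inbred congenic CB lines of White Leghorn origin. Whole organs were used, untreated as far as the labels say, so that fewer cells of a type and less RNA per cell cannot be told apart. Values are the log2 expression values that the authors deposited. A background level of log2 3.32 was taken from probe sets for non-chicken sequences on the same arrays, which 55.1% to 55.7% of probe sets exceeded on each array. The correlation over probe sets was 0.991 between the ovary pools, 0.995 between the testis pools and 0.825 to 0.834 between organs. The organs carried their defining transcripts: GDF9 and CYP19A1 were above background in both ovary pools and in neither testis pool, and the acrosin gene ACR was above it in both testis pools and in neither ovary pool.

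All 10 egg coat probe sets were brighter in both ovary pools than in both testis pools, which was also the case for 40% of all probe sets. A limma test over the whole array called 9 of the 10 higher in ovary (adjusted p under 0.05), 0 higher in testis, and left out ZP1. Over the whole array 18.2% of probe sets were called higher in ovary. The 9 called probe sets belonged to 6 genes, and 7 of them differed by at least 4 log2 units, or 16-fold, a size reached by 2.64% of all probe sets toward ovary. The median difference of the 10, ovary minus testis, was 6.48 on the log2 scale (range 0.95 to 9.57), against 0.01 over all probe sets. UMOD, the gene also named ZPD, went the other way and was called higher in testis.

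**Figure D1:**
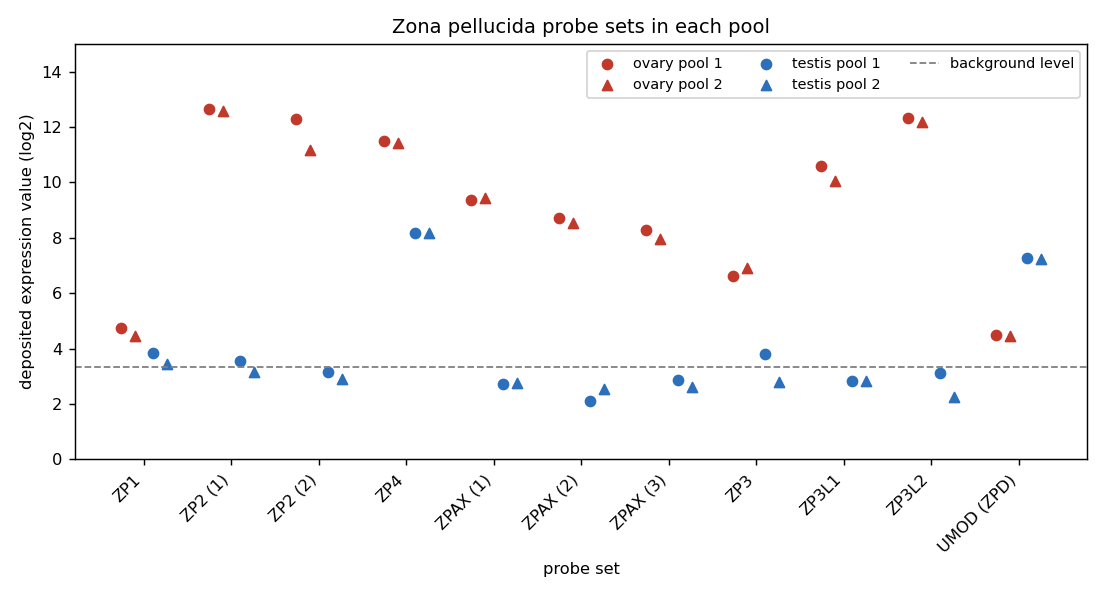
Deposited log2 value of each egg coat probe set in every pool, with ovary pools in red, testis pools in blue, pool 1 as circles and pool 2 as triangles; the dashed line is the background level of log2 3.32. The red points lie above the blue points for all 10 probe sets chosen by name and below them for UMOD (ZPD); levels can be compared within a probe set only.

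ZP2 (NCBI gene 427006) encodes an egg coat subunit of the oocyte that in mouse carries the sperm-binding region. Its brighter probe set stood at log2 12.65 and 12.58 in the ovary pools, against 3.55 and 3.14 in the testis pools. The ovary values were high and nearly equal, and of the testis pools pool 1 alone was above background, below the brightest non-chicken probe set of its array. ZP2 was higher in ovary by 9.27 (SE 0.18, limma adjusted p = 0.00106).

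The other ZP2 probe set had log2 12.31 and 11.16 in the ovary pools and 3.16 and 2.89 in the testis pools. Both testis values were at background, so the ovary mean was at least 340.4-fold higher (limma adjusted p = 0.00488). Its ovary pools differed by 1.15, more than the 95th percentile of 0.936 for the gap between ovary pools over all probe sets above background in both, whereas the brighter ZP2 probe set differed by 0.07 between the same pools. With testis pool 1 or testis pool 2 left out this second probe set no longer passed (limma adjusted p = 0.0729 and 0.0759).

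ZP4 (NCBI gene 395692), which encodes a subunit related in sequence to ZP1, was the gene chosen by name that had a clear testis signal. Its values were log2 11.50 and 11.44 in ovary, against 8.17 and 8.17 in testis. The groups were far apart, yet both testis values were well above background and above every non-chicken probe set on their arrays. The ovary mean was 9.85-fold higher, a log2 difference of 3.30 with a 95% interval of 3.19 to 3.41 (SE 0.033, limma adjusted p = 0.000517). Besides ZP4, the probe set of ZP1 alone among the 10 was above background in both testis pools, and 6 were at background in both. Such low values were common, since 55.5% of all probe sets exceeded background in testis pool 1 and 55.7% in testis pool 2. All 6 egg coat probe sets at background in testis were called higher in ovary, a combination found in 2.88% of probe sets over the array.

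ZPAX (NCBI gene 421952) belongs to a branch of the egg coat family that is present in birds, frogs and fishes. All 3 of its probe sets were at background in both testis pools and were called higher in ovary. The brightest had log2 9.36 and 9.44 in ovary, against 2.71 and 2.75 in testis, at least 67.4-fold higher (limma adjusted p = 0.000373). A second had 8.73 and 8.52 in ovary, against 2.11 and 2.56 in testis, at least 39.5-fold (limma adjusted p = 0.00218). The third had 8.28 and 7.95 in ovary, against 2.85 and 2.63 in testis, at least 27.7-fold (limma adjusted p = 0.00206). The probe sets thus went the same way, and each kept its call whichever pool was left out (highest limma adjusted p 0.041).

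ZP3 (NCBI gene 378906) encodes the subunit that granulosa cells supply to the chicken egg coat. Its probe set had log2 6.63 and 6.90 in the ovary pools and 3.79 and 2.79 in the testis pools. The ovary values were well above background, and the testis pools lay on either side of it, 1.00 apart, with the higher of them below the brightest non-chicken probe set of its array. ZP3 was higher in ovary by 3.48 (SE 0.44, 95% interval 1.99 to 4.96, limma adjusted p = 0.0207). It no longer passed with ovary pool 1, ovary pool 2 or testis pool 2 left out (limma adjusted p = 0.0746, 0.0842 and 0.0528).

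ZP3L1 (NCBI gene 415305) and ZP3L2 (415314) are named as ZP3-like genes and lie on chromosome 10 of the GRCg7b assembly, as does ZP3. ZP3L1 had log2 10.61 and 10.05 in ovary, against 2.83 and 2.82 in testis, at least 129-fold higher (limma adjusted p = 0.00203). ZP3L2 had 12.33 and 12.18 in ovary, against 3.12 and 2.25 in testis, at least 489-fold higher (limma adjusted p = 0.00271). For both genes the testis pools were at background and the ovary pools were far above it, and both calls held with each pool left out in turn.

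ZP1 (NCBI gene 395418) encodes the subunit that chickens are known to make in the liver, and its difference did not pass. The values were log2 4.73 and 4.47 in ovary, against 3.84 and 3.46 in testis. All 4 lay above the background level but near it; the ovary values exceeded every non-chicken probe set on their arrays, and of the testis values that of pool 1 did. The difference was 0.95 (SE 0.20, 95% interval 0.28 to 1.62, limma adjusted p = 0.0582, unadjusted p = 0.0213). It passed with dim probe sets removed before the fit (adjusted p = 0.0172), with arrays centred on their medians (0.0135), with quantile normalization (0.0452), with a variance trend (0.042) and with the pool number as a block (0.0244). It failed with values floored at background (0.1), with robust moderation (0.0676) and whichever pool was left out (0.109 to 0.181).

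Genes typical of liver, the known source of ZP1 protein, divided between the gonads. The albumin gene ALB had log2 5.51 and 4.91 in ovary, against 7.67 and 7.36 in testis, and was called higher in testis by limma (adjusted p = 0.0203), which was lost with testis pool 1 or testis pool 2 left out (0.158 and 0.133). The apolipoprotein B gene APOB was at background in all 4 pools. The yolk precursor gene VTG2, which the liver expresses under oestrogen, had 2.63 and 2.55 in ovary, against 7.28 and 7.36 in testis. That was at least 16-fold more in testis (limma adjusted p = 0.000598), with 1 of its 2 probe sets called. VTG1, VTG3 and APOV1 of the same list were at background in all 4 pools on their brightest probe sets. The largest difference toward testis was that of APOH, with 3.86 and 2.78 in ovary, against 10.96 and 10.55 in testis (-7.43, SE 0.49). Its call (limma adjusted p = 0.00613) was lost when either testis pool was omitted. The haem-binding protein gene HPX went the other way, with 12.86 and 12.50 in ovary, against 7.58 and 7.04 in testis, 41.3-fold higher in ovary (limma adjusted p = 0.00402), and kept its call whichever pool was omitted. The apolipoprotein gene APOA1 was higher in ovary by 1.21 (limma adjusted p = 0.0442), which was lost when either ovary pool was omitted (0.142 and 0.145). Of 18 measured liver genes 2 were called higher in ovary, 8 higher in testis and 8 not, with a median difference of -0.47; with a pool left out 1 to 2 were higher in ovary and 5 to 6 higher in testis. Of all genes 28.7% were called higher in ovary and 24.3% higher in testis. The probe sets of 1 liver gene, the transferrin gene TF, disagreed, with 2 of 4 called higher in ovary and 1 higher in testis. The list's summed signal on the linear scale was 20218 to 21691 in ovary and 12595 to 14801 in testis. Such a sum rests mainly on the brightest probe sets, in ovary those of APOA1 (log2 13.40 and 13.41), HPX and TF. Levels can be compared within a probe set only, so the sum does not measure the liver-type RNA of either organ. The part of liver-type transcripts in the ZP1 values was not tested.

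UMOD (NCBI gene 404754), listed in RefSeq with ZPD as its other name, had log2 4.51 and 4.44 in ovary, against 7.25 and 7.22 in testis. ZPD is known in chicken as a granulosa cell product of the perivitelline layer. The pools of each organ were within 0.07 of each other and all 4 values lay above background. The difference of -2.76 (SE 0.037, 95% interval -2.89 to -2.64, limma adjusted p = 0.000705) made UMOD 6.79-fold higher in testis, and the call held with each pool left out (adjusted p 0.00781 to 0.0213). Over the whole array 17.4% of probe sets were called higher in testis.

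**Figure D2:**
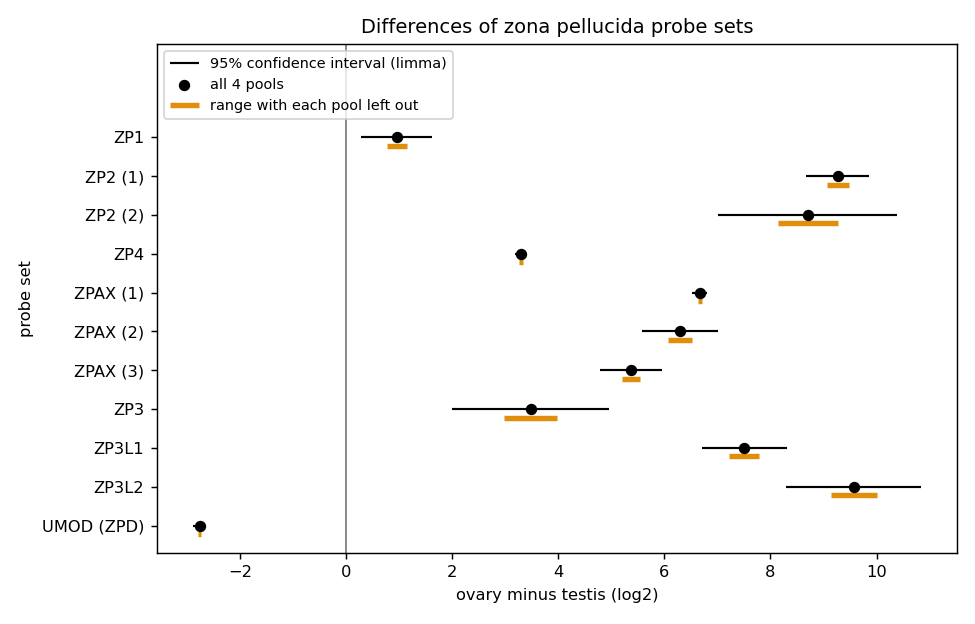
Ovary minus testis difference on the log2 scale for each egg coat probe set, with limma 95% confidence intervals in black and, in orange, the range of differences obtained with each pool left out in turn. The interval of ZP3 (1.99 to 4.96) is wide, that of ZP4 (3.19 to 3.41) is narrow, and UMOD (ZPD) lies on the testis side of 0.

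Between the ovary pools, 8 of the 10 egg coat probe sets were brighter in pool 1 than in pool 2, the exceptions being ZP3 and the brightest ZPAX probe set. Among all probe sets above background in both ovary pools, 42.9% were brighter in pool 1. The gaps were small, with a median size of 0.23 for the egg coat probe sets, against 0.17 for that wider set. In a list of oocyte genes, 9 of 15 were brighter in ovary pool 1, with a median gap of 0.05. No test was made of this, since probe sets of 1 array share its RNA and several share a gene.

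Oocyte genes other than the egg coat genes were mostly higher in ovary too. Of 15 measured, 12 were called higher in ovary, 1 (BUB1B, a spindle checkpoint gene, by 0.40) higher in testis and 2 not, with a median difference of 5.75 on the brightest probe set of each gene. With a pool left out, 8 to 11 were called higher in ovary, and BUB1B no longer passed without ovary pool 1 or ovary pool 2 (limma adjusted p = 0.0794 and 0.0826). Over all 13008 genes 28.7% were called higher in ovary and 24.3% in testis, and the median difference was 0.01. The oocyte growth factor gene GDF9 had log2 13.11 and 13.06 in ovary, against 2.24 and 2.45 in testis, with 1 of its 2 probe sets called. Its relative BMP15 had log2 5.90 and 5.32 in ovary, against 3.84 and 4.24 in testis, and a difference of 1.57 that passed narrowly (limma adjusted p = 0.0485) and failed whichever pool was left out (0.0544 to 0.247). NOBOX, an oocyte homeobox gene required in mouse for expression of many oocyte genes, was at least 34.5-fold higher in ovary (limma adjusted p = 0.00269, and 0.0503 when testis pool 2 was omitted). The summed linear signal of the list was 53852 to 53906 in ovary and 13498 to 13847 in testis, where DAZL and BUB1B, expressed in germ cells or dividing cells of both sexes, were bright. Resting mainly on the brightest probe sets, this sum does not measure oocyte RNA.

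On a list headed granulosa cell, after the cell type known to make ZP3, 19 genes were measured. Of these, 12 were called higher in ovary, 3 higher in testis and 4 not. Their median difference was 2.41. Fewer genes of the list were called higher in ovary whichever pool was left out. The shares of all genes called were 28.7% toward ovary and 24.3% toward testis. The aromatase gene CYP19A1 had log2 13.37 and 13.30 in ovary, against 2.99 and 2.31 in testis. FOXL2, a granulosa cell transcription factor gene, had 11.12 and 10.94 in ovary, against 1.94 and 3.12 in testis. The inhibin and activin subunit genes INHBB and INHA and the nuclear receptor gene NR5A2 were the 3 higher in testis, of which INHA was lost without testis pool 1 or testis pool 2 (limma adjusted p = 0.0816 and 0.0725). INHA and NR5A2 were each called on 1 of their 2 probe sets, and INHBB on 2 of 2. Summed linear signals of the list were 51059 to 51072 in ovary and 6920 to 9297 in testis. Such a sum rests mainly on the brightest probe sets, in testis above all that of AMH (log2 12.03 and 11.47), and does not measure granulosa cell RNA. AMH, FSHR and INHA of this list are also on the Sertoli cell list. Its steroid synthesis genes, CYP19A1 among them, cannot be taken as markers of granulosa cells in the chicken. Its counts therefore do not single out these cells. In this list and in the oocyte list more genes were called higher in ovary than in testis, and their part in the difference of ZP3 was not tested.

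A list of ZP domain genes not chosen by the name rule held UMOD, described above under its other name ZPD, and genes not known as egg coat subunits. Of 10 measured, 3 were called higher in ovary, about the 28.7% of all genes so called, 1 (UMOD) higher in testis and 6 not, with a median difference of 0.13. Without UMOD, a choice made after seeing the data, 3 of 9 were called higher in ovary, with a median of 0.25. By limma 0 were then called higher in testis (also 0 at an unadjusted p under 0.05). Since UMOD was the only gene of the list called higher in testis, its removal fixed the called number at 0 in advance. ZPLD1, a ZP domain gene known for its role in the inner ear of fish, had log2 7.30 and 7.33 in ovary, against 3.43 and 3.48 in testis, and was higher in ovary by 3.86 (SE 0.034, limma adjusted p = 0.000477), with 2 of its 4 probe sets called. The TGF-beta co-receptor genes TGFBR3 (1.79) and ENG (1.59) were the others higher in ovary (limma adjusted p = 0.0043 and 0.0426). Neither passed with testis pool 1 left out (0.0663 and 0.244) or with testis pool 2 left out (0.0691 and 0.216), and 1 gene of the list was then called higher in ovary. The inner ear genes TECTA and TECTB were at background in all 4 pools.

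Among 14 genes of the egg surface and of egg coat processing, 4 were called higher in ovary, again about the share of all genes, 1 higher in testis and 9 not, with a median difference of 0.00. CD9, a tetraspanin gene needed on the mouse egg for sperm fusion and active in many other cells, had log2 11.95 and 12.16 in ovary, against 6.74 and 6.19 in testis, 48.1-fold higher (limma adjusted p = 0.00324). ASTL, whose product cleaves ZP2 after fertilisation in mouse, had 5.79 and 5.40 in ovary, against 3.13 and 2.25 in testis, at least 4.83-fold higher (limma adjusted p = 0.0256), and failed whichever pool was left out (0.0661 to 0.093). The furin gene FURIN, of the protease family that releases ZP proteins from the membrane, was at background in all 4 pools on its single probe set. Its relative PCSK6 was higher in testis by 3.57 (limma adjusted p = 0.00565), which was lost without testis pool 1 or testis pool 2 (0.0825 each). MFGE8, a milk fat globule protein gene, and the convertase gene PCSK7 were the other 2 higher in ovary, on 1 of 2 and 1 of 3 probe sets. MFGE8 failed whichever pool was omitted (limma adjusted p 0.0606 to 0.0781), PCSK7 failed when either testis pool was (0.187 and 0.178), and with a pool left out 1 to 3 genes of the list were called higher in ovary.

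The sperm genes named for binding the egg coat had the opposite pattern. ZPBP1, which encodes an acrosomal protein that binds the zona pellucida in mammals, had log2 2.37 and 2.37 in ovary, against 12.74 and 13.01 in testis, or at least 749.7-fold more in testis (limma adjusted p = 0.000574). ZPBP2 had 3.32 and 2.84 in ovary, against 9.41 and 9.16 in testis, or at least 62.2-fold more in testis (limma adjusted p = 0.0025). Of 6 measured sperm genes of fertilisation, 5 were called higher in testis and 0 higher in ovary, with a median of -10.64. The shares of all genes so called were 24.3% and 28.7%. SPAM1, a sperm hyaluronidase gene, was at background in all 4 pools.

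**Figure D3:**
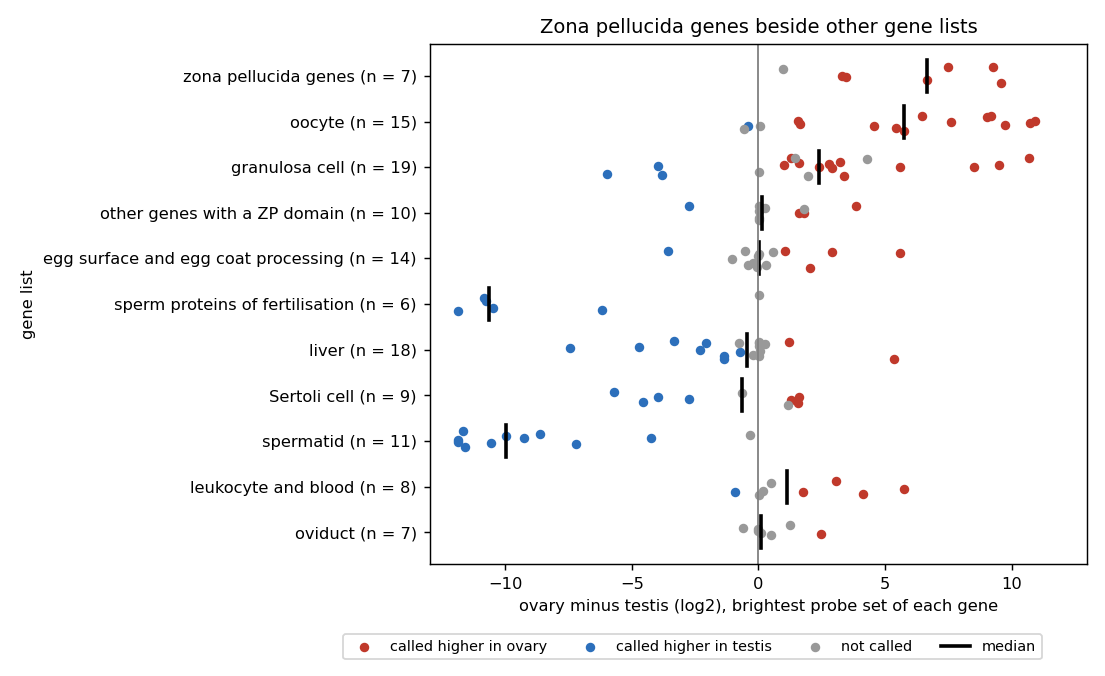
Ovary minus testis difference on the log2 scale for each gene (points, brightest probe set) of the egg coat genes and of the other gene lists, coloured by the limma call; black bars are medians, and UMOD (ZPD) is the blue point among the other genes with a ZP domain. Of the 7 egg coat genes 6 are called higher in ovary, beside 12 of 15 oocyte genes, and 5 of 6 sperm genes of fertilisation are called higher in testis.

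The genes with the closest profiles over the 4 arrays were sought for the 6 called egg coat genes, by Euclidean distance between log2 values centred on each probe set's own mean. The egg coat genes themselves and genes with placeholder LOC names were left out of the search, so the ranks hold among the remaining named genes. With 4 arrays this chiefly finds genes with a like ovary to testis gap. For ZP2 they were LHX8, a LIM homeobox gene required in mouse oocytes (distance 0.166), PLIN3L (0.199) and the potassium channel gene KCNK2 (0.276). LHX8 had log2 12.69 and 12.79 in ovary, against 3.69 and 3.40 in testis. It was also among the 3 closest to ZP3L2 (0.583), after the kinase gene SGK2 (0.207) and the granin gene CHGA (0.466). ZP3L1 lay closest to MOS, the kinase gene that holds mature eggs in meiotic arrest (0.169), followed by MUC1 (0.222) and MCTP1 (0.316). MOS had 9.91 and 9.41 in ovary, against 2.12 and 1.95 in testis, with 1 of its 2 probe sets called. Closest to ZPAX were CDKN1A (0.0717), AREG (0.0804) and TROVE2 (0.0871), and to ZP3 STXBP6 (0.151), CYR61 (0.161) and LHPP (0.233). The closest to ZP4 were CPEB4 (0.0223), CDAN1 (0.0255) and DACT1 (0.0327). Centring leaves the level out of account. CPEB4 was at background in both testis pools (log2 3.13 and 3.11), where ZP4 was well above it.

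The egg coat genes lie on chromosomes 3, 5, 6, 10 and 14 of GRCg7b and UMOD on 11, so that none is on Z or W. ZP3L1 and ZP3 are adjacent protein-coding genes. COMMD4, on the far side of ZP3, was higher in ovary by 1.36 (limma adjusted p = 0.0129), which was lost when either ovary pool was omitted (0.0588 and 0.0602), while STOML1, the nearest measured gene on the far side of ZP3L1, was at background. The neighbours of ZP3L2 did not pass, CD276 with -0.17 (limma adjusted p = 0.473) and INSYN1 with -0.04 (0.694). For ZPAX the differences of MSGN1 and KCNS3 were -0.02 and -0.01, and for ZP2 those of TMEM159 and ANKS4B were -0.65 and 0.35. MSGN1, ANKS4B and INSYN1 were at background in all 4 pools. KCNS3 was near it, at log2 3.49 to 3.51, and below the brightest non-chicken probe set of every array. Beside ZP1, BAAT was at background and PRPF19 did not pass (-0.67, limma adjusted p = 0.0742). TMEM159 was called higher in testis (limma adjusted p = 0.00565), which was lost without testis pool 1 or testis pool 2 (0.0724 and 0.07). Beside ZP4, LOC423752 was at least 2.61-fold higher in ovary (limma adjusted p = 0.00344), which was lost without testis pool 1 or testis pool 2 (0.0606 and 0.0622), and CYP2C18 did not pass (0.57, limma adjusted p = 0.516). Next to UMOD lay DRC7, a gene of the sperm tail dynein regulatory complex, with log2 5.55 and 5.50 in ovary, against 12.37 and 12.34 in testis (limma adjusted p = 0.000304), while ADGRG3 on its other side was at background in all 4 pools.

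**Figure D4:**
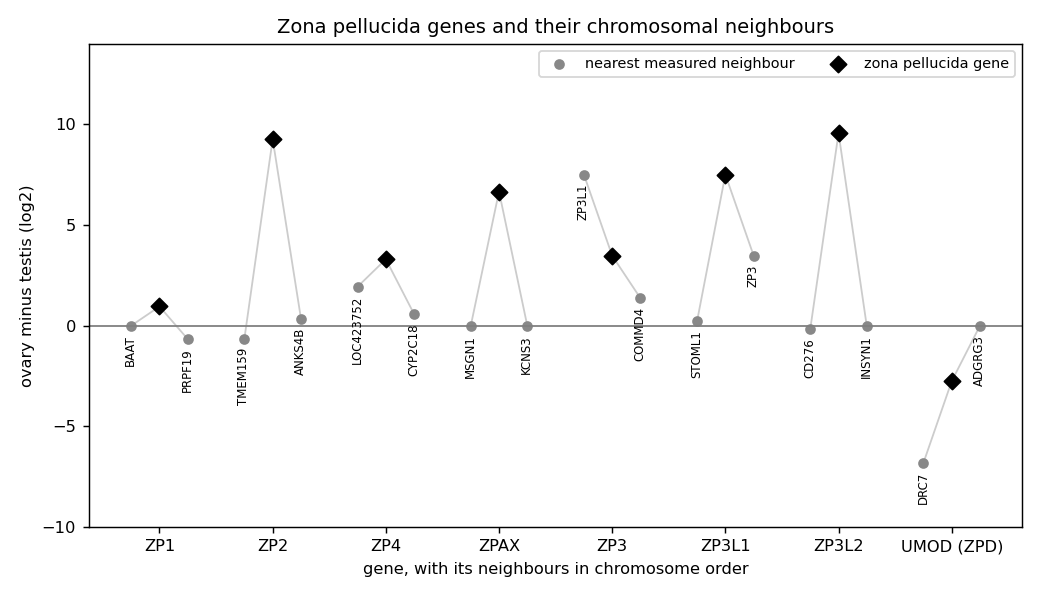
Ovary minus testis difference on the log2 scale for each egg coat gene (black diamonds, brightest probe set) and the nearest measured protein-coding gene on either side of it in GRCg7b (grey points), in chromosome order. ZP2, ZPAX and ZP3L2 stand 6.66 to 9.57 above 0 between neighbours that lie between -0.65 and 0.35. Of these neighbours, MSGN1, KCNS3, ANKS4B and INSYN1 are at or near background in all pools. UMOD (ZPD) lies on the testis side between DRC7, also on that side, and ADGRG3, near 0.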

How the data were processed

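Per the labels, total RNA of 4 animals was pooled for each array. The deposited values are log2 expression per probe set, with near-equal quantiles on the 4 arrays. The submitters' processing notes list GCRMA and MAS5 without saying what each did, and no source used here gives a genome build.

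After 153 control probe sets were left out, 38382 were tested with limma 3.58.1 in R 4.3.3 (lmFit, eBayes, two-sided) for ovary minus testis, with Benjamini-Hochberg adjustment over all of them, a threshold of 0.05 and no filter on low values. The fit had 2 residual and 0.741 prior degrees of freedom; an exact permutation test of 2 pools against 2 has a smallest two-sided p of 0.333. P-values reflect spread between pools, not single animals, and having 4 arrays limits precision. The background level is the 99th percentile of 689 probe sets recognised by name as non-chicken. If neither pool of an organ exceeded it, the fold is "at least" the brighter organ's mean over that level.

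All 7 genes matched the RefSeq gene table by gene number. In gene lists a gene is represented by its probe set with the highest mean over the 4 arrays. The members and lists (oocyte, granulosa cell, other ZP domain genes, egg surface and processing, sperm fertilisation genes, liver, Sertoli cell, spermatid, leukocyte and blood, oviduct) were chosen with earlier results of these data known. POF1B, ITGB7 and MAEL were dropped after values were seen, because they do not belong under their headings. Named genes are every egg coat gene, up to 3 called genes per direction in a list by size of difference, of which some are printed, a few fixed markers and the 3 closest profiles. NOBOX, TECTA, TECTB, FURIN, SPAM1, PCSK7, DAZL, TF, VTG1, VTG3, APOV1 and the neighbouring genes were named after their values were seen. The fit was also run on simulated data with independent normal noise, which checks the code and not the calls made here. The alternatives were a variance trend, robust moderation, quantile normalization, median centring, a floor, a filter on dim probe sets, a lower background level, the pool number as a block, each pool left out, the mean of a gene's probe sets and, added after seeing the data, the ZP domain list without UMOD.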

Additional observations from a re-analysis of the deposited data

How the results depend on the processing

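Of 10 egg coat probe sets, the number called higher in ovary was 9, and 9 to 10 under the 7 alternatives that kept all pools; it was 7 to 8 with a pool left out. No difference of an egg coat probe set or of UMOD reversed under the 11 fits tried, and 7 of the 10 were called in all of them; the exceptions were ZP1, ZP3 and the dimmer ZP2 probe set. The median difference of the 10 moved to 5.69 with values floored at the background level, which raises testis values by construction, and ran from 6.36 to 6.60 with a pool left out. With the 95th percentile as background, 4 rather than 6 probe sets were at background in testis, and the lower bounds for ZPAX were 84.3, 49.4 and 34.7. Over the whole array, calls with a pool left out ran from 3734 to 6449 toward ovary and 4053 to 6007 toward testis, against 7000 and 6666 with all pools; both were lowest without testis pool 2, and without testis pool 1 they were 3898 and 4177. Genes of the lists called higher in ovary numbered 39, and 24 to 34 with a pool left out. With all pools, 32 genes of the lists were called higher in testis. Of all genes 28.7% were called higher in ovary and 24.3% higher in testis. The lists were chosen for cell types of both organs, so these pooled numbers compare fits and not organs. The number measured is given with each list. Of 242 list counts recomputed, 44 moved by over 1.5 times, by at most 3 genes. The gap between pool 1 and pool 2 in ovary was little correlated with that in testis (r = 0.062 over 18748 probe sets). With 1 such gap per organ this cannot tell whether the pool numbers mark a pairing, and the sample titles give only a number. With the pool number as a replicate block 9 egg coat probe sets were called, with ZP1 passing (adjusted p = 0.0244) and ZP3 not (0.0687), and 5874 probe sets were called toward ovary. Where a pool was left out, the fit keeps 1 residual degree of freedom, and the lone pool is assumed to vary like those of the other organ. Values near the background level, as for ZP1, limit what these arrays can show.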

Other observations

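Transcripts of other cell types also differed between the pools. Haemoglobin transcripts were brighter in ovary: HBA1 had log2 13.61 and 12.67 in ovary, against 7.91 and 6.87 in testis, and HBAD had 10.87 and 9.67 in ovary, against 6.09 and 6.15 in testis (limma adjusted p = 0.0141 and 0.0197). Both were brighter in ovary pool 1 than in ovary pool 2, and both calls ended without testis pool 1 (0.0839 and 0.165) and without testis pool 2 (0.0997 and 0.155). Of 8 leukocyte and blood genes, 4 were called higher in ovary, 1 higher in testis and 3 not, with 2 to 4 and 0 when a pool was left out. The macrophage receptor gene CSF1R was among the 4 (8.45-fold, limma adjusted p = 0.00712). The leukocyte gene PTPRC was the 1 higher in testis, with log2 7.34 and 7.06 in ovary, against 7.99 and 8.26 in testis. It passed narrowly (limma adjusted p = 0.0432), on 1 of its 3 probe sets. Of all genes 28.7% were called higher in ovary and 24.3% higher in testis.

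Spermatid genes were higher in testis in 10 of 11 cases, against 24.3% of all genes, with a median difference of -9.98. PLCZ1, among the 10, is also counted among the sperm genes of fertilisation. Sertoli cell genes divided, with 3 of 9 called higher in ovary (1 to 2 with a pool left out), 4 higher in testis and 2 not. The 3 of 9 were near the 28.7% of all genes called higher in ovary, and 24.3% of all genes were called higher in testis. Of the called Sertoli cell genes, AMH and FSHR toward ovary and INHA toward testis are also on the granulosa cell list. AMH was called on 1 of its 4 probe sets. CLDN11, with 2 of 2 probe sets called, and DMRT1, with 2 of 7, were among the 4 higher in testis. Among 7 oviduct genes, the ovalbumin gene OVAL alone was called, a smaller share than the 28.7% of all genes called higher in ovary. It had log2 4.30 and 4.77 in ovary, against 2.06 and 2.07 in testis (at least 2.31-fold higher in ovary, limma adjusted p = 0.0088), and did not pass without testis pool 1 (0.106) or testis pool 2 (0.104).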
